A study of Mus musculus with 4 samples.

Results

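The nuclear-encoded respiratory chain genes of the mouse were described in 4 single-cell RNA libraries of MMTV-neu mice. The members were all genes whose symbol begins with Ndufa, Ndufb, Ndufc, Ndufs, Ndufv, Uqcr, Cox4i, Cox5, Cox6, Cox7, Cox8 or Atp5. Entries marked -ps, the 7 assembly factors named Ndufaf, and Cox4i2 and Ndufa4l2 were left out. This removed 9 genes, 0 of them -ps entries. The rule gave 79 of the 27998 genes in the files. By product, 36 belong to complex I, 8 to complex III, 18 to complex IV and 15 to complex V, with Ndufa4 counted in complex IV, and 2 (Atp5s and Atp5sl) lie outside the complexes. A UMI (a tag on a single captured RNA molecule) was found for 77 members in the called cells. Cox7b2 and Cox8c had 0 UMIs in every library. In all, 76 members had at least 20 UMIs over the 4 libraries, and 66 had at least 100 CPM (UMIs scaled to a library total of 1000000) in each of them.

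MMTV-neu mice carry the rat Erbb2 (HER2, neu) oncogene under the mouse mammary tumor virus promoter, which is active mainly in mammary epithelium, and all 4 groups came from such mice on the FvB strain. Early-stage mice were 14 to 18 weeks old with no palpable tumor, and gave an early lung library and an early lesion library from the mammary gland. Late-stage mice were older than 20 weeks and bore tumors, and gave a late lung library and a primary tumor library. Each group was 1 library of CD45- HER2+ sorted cells captured with the 10x Chromium 3′ v2 kit, so no comparison had replicates, and whether a library held cells of 1 mouse or of several is not given in the sources used here. The intervals below are exact 95% intervals for counting error only, and no test between groups was possible.

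The respiratory chain is a set of protein complexes in the inner mitochondrial membrane. Complex I takes electrons from NADH and complex III passes them on to cytochrome c. Complex IV, cytochrome c oxidase, hands them to oxygen, and complex V, the ATP synthase, uses the resulting proton gradient to make ATP. A few subunits are encoded in mitochondrial DNA and the rest in the nucleus. Several complex IV subunits exist as isoform pairs, with a member used in most tissues and a member restricted to heart and skeletal muscle, brown fat or testis. Milk-producing mammary epithelium is rich in mitochondria, while in the lung the thin alveolar type 1 cells and the capillary endothelium line the gas exchange surface.

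The early lung gave 185 called cells, the late lung 210, the early lesion 1318 and the primary tumor 434, and no cell barcode was shared between libraries. Their median depth was 772, 811, 2360 and 1657.5 UMIs, in that order. Cells over 10000 UMIs held 5.60%, 42.2%, 6.50% and 54.5% of the UMIs, from 1, 8, 21 and 18 cells. Although the labels call the lung cells breast cancer cells, the lung libraries were led by lung classes: 61 and 93 alveolar type 1-like cells and 73 and 55 endothelial-like cells in the early and the late lung. The 17 mammary luminal markers summed to 712 CPM (early lung) and 2104 CPM (late lung), with 6 and 4 of them at 0, against 102505 CPM in the lesion and 83798 CPM in the tumor. Ltf, Cldn4, Wap and Cited1 were at 0 in both lung libraries. In every ratio of a lung library to a primary site, the site, the kinds of cell and the library thus cannot be told apart. A summed level likewise does not separate a change within cells from a change in which cells were captured.

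The members together made up more of the RNA at the primary site than in the lung. Of the UMIs of called cells, early lung cells had 2.78% from members (95% interval 2.71% to 2.85%), late lung cells 2.40% (2.36% to 2.45%), lesion cells 3.48% (3.47% to 3.50%) and tumor cells 3.95% (3.92% to 3.97%). The median cell held 2.98%, 2.89%, 3.40% and 4.26%, in the same order, so the late lung was lowest and the tumor highest by both measures, and the 2 lung medians lay close together. RNA outside cells, read from barcodes with 1 to 50 UMIs, held the members at 2.52%, 2.38%, 3.40% and 3.28%. The tumor was the library whose cells stood farthest above their free RNA. Mitochondrially encoded subunits held 12.9%, 9.51%, 2.79% and 18.1% of the free RNA, against 3.49%, 2.61%, 0.403% and 3.69% of the UMIs of called cells. The 2 totals thus differed in make-up, and member shares of cells and free RNA were not compared without mitochondrial UMIs.

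Other abundant classes of RNA also differed between the libraries. Cytosolic ribosomal protein genes held 9.95% of early lung UMIs, 9.18% of late lung UMIs, 24.6% of lesion UMIs and 21.2% of tumor UMIs. The 9 milk protein genes held 15.2% of the UMIs in the lesion and 6.61% in the tumor, against 0.0196% and 0.140% in the lungs. Because all shares are parts of a total, scaling was varied: with the milk genes taken out of the total, the summed log2 ratio of early lung to lesion went from -0.33 to -0.56, and that of tumor to lesion from 0.18 to 0.040. Whether the ribosomal protein genes had a part in the member shares was not tested.

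**Figure D1:**
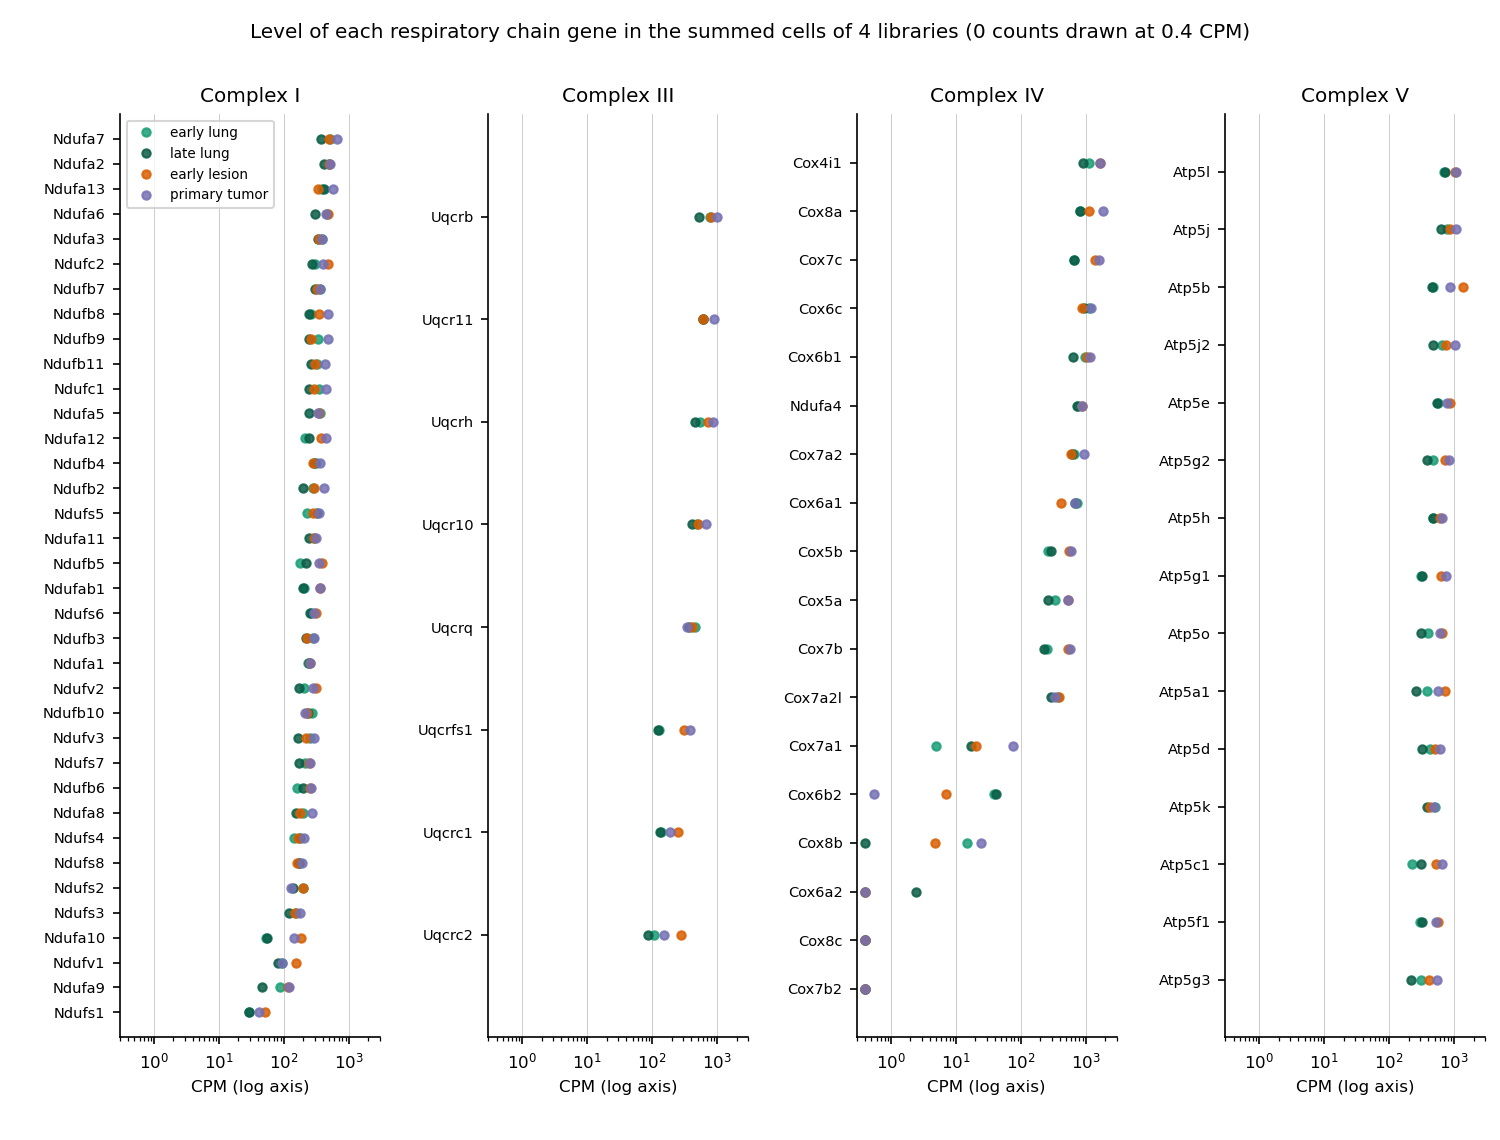
Level of each member of complexes I, III, IV and V in the summed cells of each library, in CPM on a log axis, with members ordered by their mean level. Most members lay between 100 and 1000 CPM with the 4 libraries close together, while Cox7a1, Cox6b2 and Cox8b lay far lower and were spread widely.

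Few members were called higher in a lung library than at the primary site of the same stage, while lower calls were near the share over all genes. A member was called when its ratio was at least 2-fold with an interval that excluded a ratio of 1, among genes with at least 20 counts over both libraries. Between early lung and early lesion, 2 members were called higher and 9 lower of 76, where 34% of all 8776 genes measured were called by the same rule, 22.1% higher and 11.9% lower. The median member ratio was -0.18 on the log2 scale and the median of all genes was 0.18. Between late lung and primary tumor, 0 members were called higher and 16 lower of 74, with 38% of 8740 genes called, 20.6% higher and 17.4% lower. There the median member ratio was -0.72 against 0.01 for all genes, and 59 members had an interval wholly below 0. Of the members, 21.6% were thus called lower in the late lung, near the 17.4% of all genes, and none of those measured was called higher. Among genes at 50 CPM or more, which include nearly all members, 56.7% were called at the early stage (37.2% higher and 19.5% lower in the lung) and 49.8% at the late stage (31% higher and 18.8% lower).

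Within a site the stages were closer. Primary tumor over early lesion gave 2 members higher and 1 lower of 76, where 31.1% of 9811 genes were called (24.5% higher and 6.68% lower, and 23.9% of genes at 50 CPM or more). The summed ratio of 0.18 was small enough to turn to -0.057 under median ratio scaling. Late over early lung gave 0 members higher and 0 lower of 71, where 12.1% of 4552 genes were called (8.7% higher and 3.45% lower, and 14.2% of genes at 50 CPM or more). The median member ratio there was -0.25, between Ndufa9 at -0.94 and Ndufs5 at 0.53. The 4 comparisons share libraries in pairs, so their values are given side by side and not correlated. The 2 comparisons of lung with primary site share none: 5 members, Atp5c1, Cox7b, Cox7c, Ndufa10 and Uqcrfs1, were called lower in both, which is 55.6% of the 9 and 31.3% of the 16. That is 6.76% of the 74 members measured in both, near the 7.0% (545) of 7784 genes. Without cells over 10000 UMIs, Cox7b lost its early call.

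**Figure D2:**
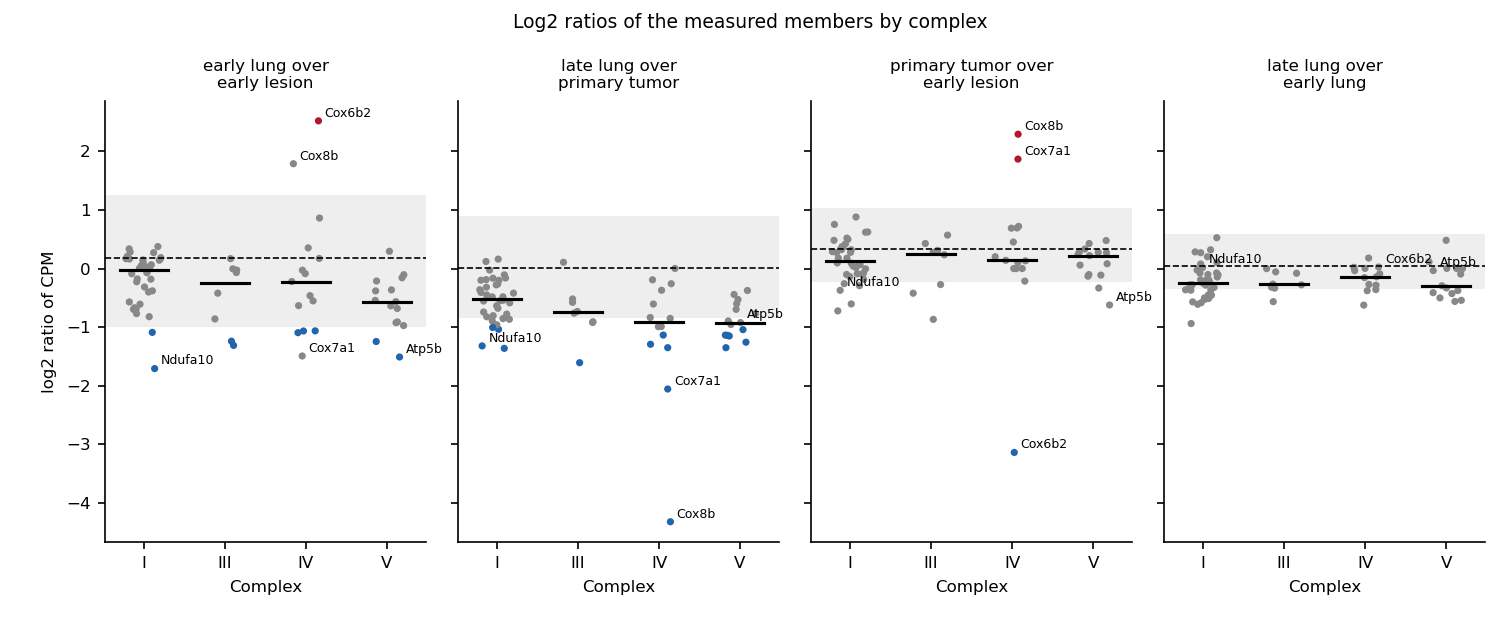
Log2 ratio of CPM of each measured member in 4 comparisons, by complex (points, with called members in red or blue; bars, median of the complex; dashed line, median of all genes measured; grey band, their middle range between the quartiles). The complex medians lay below the median of all genes in every panel, and the points farthest out between tumor and lesion were the complex IV isoforms Cox6b2, Cox7a1 and Cox8b.

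Complex I was the complex that differed least between the early lung and the lesion. Its 36 members summed to 9284 CPM in the early lung, 8053 CPM in the late lung, 10240 CPM in the lesion and 11704 CPM in the tumor. The log2 ratio was -0.14 (95% interval -0.21 to -0.07) for early lung over lesion and -0.54 (-0.59 to -0.49) for late lung over tumor. Of the 36, 0 were higher and 2 lower (5.56%) in the early lung, beside 11.9% of all genes lower. In the late lung 0 were higher and 4 lower (11.1%), beside 17.4% of all genes lower. The share of complex I in all member UMIs was 33.4% and 33.5% in the lungs against 29.4% and 29.7% at the primary sites. The intervals of lung and primary site did not overlap.

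The 3 complex I genes with the highest mean level were Ndufa7, Ndufa2 and Ndufa13, all accessory subunits. Ndufa7 stood at 520 CPM in the early lung, 381 CPM in the late lung, 500 CPM in the lesion and 668 CPM in the tumor. Ndufa13, also known as the cell death regulator GRIM-19, stood at 383, 413, 343 and 578 CPM, and Ndufa2 at 491, 413, 493 and 516 CPM. None of the 3 was called in any comparison, and the tumor held the highest value of each. UMIs from the 3′ end register a transcript once whatever its length, so these levels were not divided by length.

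Ndufa10, an accessory subunit of the membrane arm (chr1:92439010-92473860), was the complex I member farthest below the primary site at the early stage. It had 11 UMIs in the early lung (54.0 CPM), 23 in the late lung (55.8 CPM), 725 in the lesion (185 CPM) and 260 in the tumor (142 CPM). Both lung values lay below both primary site values. The log2 ratio was -1.71 (-2.78 to -0.93) for early lung over lesion and -1.32 (-2.03 to -0.73) for late lung over tumor. Ndufb5, an accessory subunit of the membrane arm, was called lower in the early lung at -1.09 (-1.62 to -0.64), and stood at 182, 221, 392 and 345 CPM.

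The 7 nuclear-encoded core subunits include those that hold the flavin and most iron-sulfur clusters that conduct the electrons. They took 3.82% (early lung), 3.70% (late lung), 3.62% (lesion) and 2.98% (tumor) of the member UMIs, and the tumor interval (2.85% to 3.10%) stood below the other 3. Without cells over 10000 UMIs the late lung came to 3.12% and the tumor to 3.05%, so those 2 no longer stood apart. The other 29 subunits took 29.6%, 29.8%, 25.8% and 26.7%. Between lesion and tumor the core share was thus lower and the other share higher in the tumor. Ndufv1, which binds NADH and the flavin, stood at 93.3 CPM in the early lung, 82.5 CPM in the late lung, 155 CPM in the lesion and 93.7 CPM in the tumor. Its tumor over lesion ratio of -0.72 (-0.98 to -0.48) was the lowest of complex I. Ndufb9 was at the other end with 0.88 (0.75 to 1.01), from 263 CPM in the lesion to 484 CPM in the tumor.

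Complex III kept nearly the same share of the member UMIs in the 4 libraries: 11.7%, 11.2%, 11.2% and 11.4%, in the order early lung, late lung, lesion and tumor. Its 8 members summed to 3250, 2696, 3910 and 4491 CPM. Of the 8, 2 were called lower in the early lung against the lesion and 1 lower in the late lung against the tumor, with 0 higher in either. These lower calls were 25% and 12.5% of the 8, beside 11.9% and 17.4% of all genes. The small subunits Uqcrb, Uqcrh and Uqcr11 had the highest mean levels. Uqcrb stood at 776, 524, 816 and 987 CPM, Uqcrh at 545, 454, 733 and 863 CPM, and Uqcr11 at 604, 604, 609 and 904 CPM. In each the tumor was highest.

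Within complex III the composition differed more. Uqcrfs1 encodes the Rieske iron-sulfur protein, a catalytic subunit (chr13:30540308-30545362), and had 26 UMIs in the early lung (128 CPM), 51 in the late lung (124 CPM), 1208 in the lesion (308 CPM) and 696 in the tumor (381 CPM). Both lung values were below both primary sites, with log2 ratios of -1.24 (-1.89 to -0.71) and -1.61 (-2.06 to -1.21). Uqcrc2, a core protein on the matrix side (chr7:120635176-120659524), had 22 UMIs in the early lung (108 CPM), 36 in the late lung (87.4 CPM), 1078 in the lesion (275 CPM) and 274 in the tumor (150 CPM). Here the lesion alone was high: Uqcrc2 was 7.02% of complex III UMIs in the lesion (6.62% to 7.44%) and 3.32%, 3.24% and 3.34% in the early lung, late lung and tumor. Its partner Uqcrc1 was 6.50% in the lesion and 4.23%, 4.86% and 4.22% in the others. Uqcrfs1, in contrast, was 7.87% in the lesion and 8.49% in the tumor against 3.93% and 4.59% in the lungs.

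Complex IV held 29.4%, 29.9%, 28.9% and 30.7% of the member UMIs, a narrow range, but it contained the members with the widest differences. Its summed level was 8180 CPM in the early lung, 7177 CPM in the late lung, 10061 CPM in the lesion and 12132 CPM in the tumor. The ratio was -0.30 (-0.37 to -0.23) for early lung over lesion, -0.76 (-0.81 to -0.70) for late lung over tumor and 0.27 (0.25 to 0.29) for tumor over lesion. In the early lung 1 member was higher and 3 lower of 15, and in the late lung 0 higher and 5 lower (35.7%) of 14. Of all genes, 22.1% were higher and 11.9% lower at the early stage, and 20.6% higher and 17.4% lower at the late stage.

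Cox4i1, Cox7c and Cox8a, small subunits around the catalytic core that mitochondrial DNA encodes, had the highest mean levels of the complex. Cox4i1 stood at 1129, 927, 1661 and 1658 CPM. Cox7c (chr13:86044816-86046904) had 133 UMIs in the early lung (653 CPM), 270 in the late lung (655 CPM), 5503 in the lesion (1402 CPM) and 2941 in the tumor (1611 CPM). Both lung values lay below both primary site values, with ratios of -1.10 (-1.36 to -0.85) and -1.30 (-1.48 to -1.12). Cox8a stood at 820, 832, 1134 and 1834 CPM and was called lower only in the late lung against the tumor, at -1.14 (-1.30 to -0.98). Cox7b was called lower in both lung comparisons, at -1.07 and -1.35, and stood at 250, 226, 529 and 579 CPM. Its early ratio was -0.99 (-1.43 to -0.60) without cells over 10000 UMIs, just short of 2-fold. Cox5b was called in the early lung alone, at -1.07 (-1.50 to -0.69), while its late ratio of -0.99 (-1.28 to -0.73) lay just inside the 2-fold limit.

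Cox6a1 went the other way. It encodes the widely used form of subunit VIa (chr5:115345642-115348981), with 153, 281, 1627 and 1246 UMIs, or 751, 682, 414 and 682 CPM. The lesion was lowest, and the early lung to lesion ratio was 0.86 (0.61 to 1.10), short of 2-fold. Its share of complex IV was 9.18% and 9.50% in the lungs against 4.12% and 5.63% in the lesion and tumor. In alveolar type 1-like cells it reached 12.5% in the early and 13.3% in the late lung, and in endothelial-like cells 7.98% and 8.73%.

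Complex V was the complex with the lowest lung to primary site ratios. Its 15 members summed to 7026 CPM in the early lung, 6106 CPM in the late lung, 10615 CPM in the lesion and 11109 CPM in the tumor. The ratio was -0.59 (-0.67 to -0.52) for early lung over lesion, with 0 higher and 2 lower, and -0.86 (-0.92 to -0.80) for late lung over tumor, with 0 higher and 6 lower. The lower calls were 13.3% and 40% of the 15, beside 11.9% and 17.4% of all genes. The share of complex V in the member UMIs was 25.3% and 25.4% in the lungs, 30.5% in the lesion and 28.2% in the tumor. These shares do not depend on how a library was scaled.

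The F1 head, in which ATP is made, accounted for most of that difference at the early stage. Its 5 genes (Atp5a1, Atp5b, Atp5c1, Atp5d and Atp5e) held 7.49% (early lung), 7.89% (late lung), 11.4% (lesion) and 8.83% (tumor) of the member UMIs. The lesion stood clear of the other 3 libraries. Atp5b encodes the catalytic beta subunit (chr10:128083273-128090391) and had 96 UMIs in the early lung (471 CPM), 190 in the late lung (461 CPM), 5306 in the lesion (1351 CPM) and 1601 in the tumor (877 CPM). Its ratio was -1.51 (-1.83 to -1.23) for early lung over lesion, -0.92 (-1.15 to -0.71) for late lung over tumor and -0.62 (-0.71 to -0.54) for tumor over lesion. As a share of complex V it was 12.7% in the lesion (12.4% to 13.1%) and 6.71%, 7.55% and 7.89% in the early lung, late lung and tumor. Atp5c1, the gamma subunit that forms the rotating shaft, followed the site instead: 221 and 311 CPM in the lungs, 531 CPM in the lesion and 643 CPM in the tumor, with ratios of -1.25 (-1.72 to -0.84) and -1.04 (-1.32 to -0.79).

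The c ring turns in the membrane as protons pass, and its subunit is encoded by Atp5g1, Atp5g2 and Atp5g3, which give the same mature protein. The 3 genes summed to 1095 CPM in the early lung, 913 CPM in the late lung, 1765 CPM in the lesion and 2163 CPM in the tumor. The late lung to tumor ratio of -1.24 (-1.40 to -1.09) was the lowest among the complexes and their subsets, and Atp5g1 (-1.26), Atp5g2 (-1.15) and Atp5g3 (-1.35) were each called lower there. None was called in the early lung, at -0.98, -0.64 and -0.38. The division among the 3 genes was alike in all libraries: Atp5g2 held 42.6%, 41.8%, 41.3% and 39.3% of the c ring UMIs, Atp5g1 28.7%, 34.6%, 35.3% and 35.0%, and Atp5g3 28.7%, 23.7%, 23.4% and 25.7%. Elsewhere in complex V, Atp5j2, a subunit of the membrane sector, was called lower in the late lung at -1.14 (-1.36 to -0.93), from 468 CPM there to 1034 CPM in the tumor. Atp5j stood at 791, 629, 853 and 1074 CPM and Atp5l at 712, 714, 1042 and 1085 CPM.

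Atp5s, a coupling factor B homologue that lies outside the listed complexes, was called higher in the early lung from 5 UMIs against 28 in the lesion (24.5 and 7.13 CPM), with a ratio of 1.90 (0.05 to 3.17). The call was lost with median ratio scaling and with milk genes taken out of the total. It had 0 UMIs in the late lung, where 3 UMIs would make 7.28 CPM, and 19 in the tumor (10.4 CPM). A single cell held 3 of the 5 early lung UMIs.

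**Figure D3:**
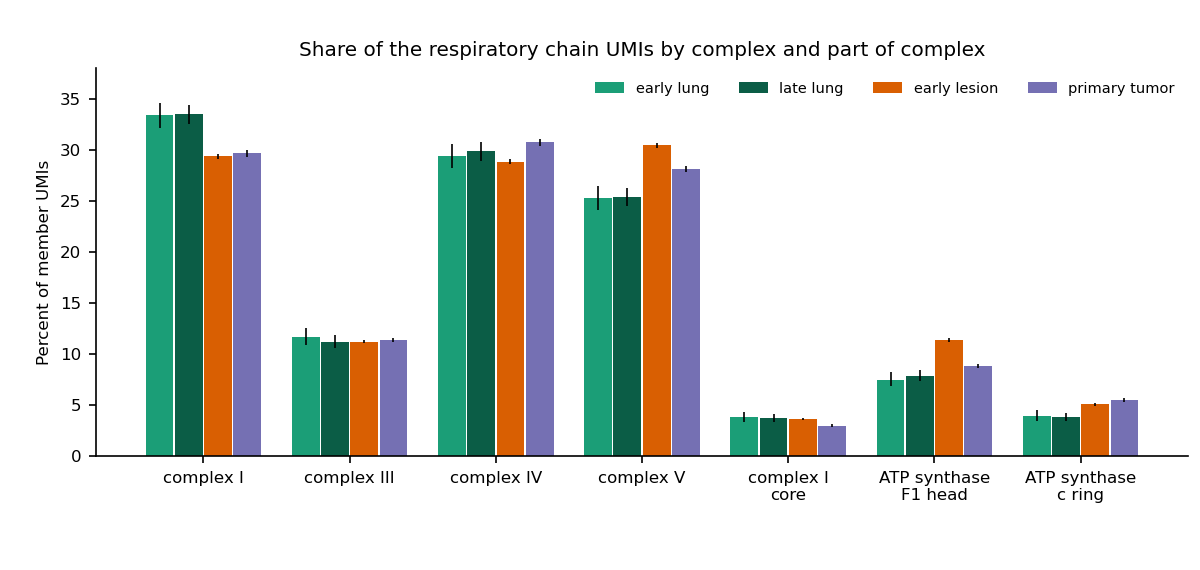
Percent of the member UMIs of each library that fell to each complex and, at the right, to 3 subsets of complexes I and V (bars; lines, 95% binomial intervals). Complex I took a larger share in both lung libraries and complex V a larger share at both primary sites, and the F1 head was highest in the early lesion at 11.4%.

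The widest differences among the members were between isoforms of complex IV subunits. Subunit VIb exists as the common Cox6b1 and the testis form Cox6b2, subunit VIIa as the common Cox7a2 and the heart, muscle and brown fat form Cox7a1, and subunit VIII as the common Cox8a and the muscle and brown fat form Cox8b. The RefSeq promoters of these 3 pairs (GRCm38.p6, from 250 bases before to 50 after the start) are shown because the rarer member of each pair is a called gene. They lie at chr7:30626065-30626364 (minus strand) for Cox6b1, chr7:4753045-4753344 (minus) for Cox6b2, chr9:79759804-79760103 (minus) for Cox7a2, chr7:30183921-30184220 (plus) for Cox7a1, chr19:7217567-7217866 (minus) for Cox8a and chr7:140900397-140900696 (minus) for Cox8b. Each is written 5′ to 3′ on the strand of its gene, with matches to the searched motifs in capitals:
Cox6b1: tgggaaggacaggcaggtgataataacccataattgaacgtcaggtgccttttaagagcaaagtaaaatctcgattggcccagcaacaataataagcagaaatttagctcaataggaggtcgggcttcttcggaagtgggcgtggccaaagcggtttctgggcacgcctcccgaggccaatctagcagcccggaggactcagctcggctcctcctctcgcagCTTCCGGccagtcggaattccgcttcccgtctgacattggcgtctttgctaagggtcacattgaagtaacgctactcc
Cox6b2: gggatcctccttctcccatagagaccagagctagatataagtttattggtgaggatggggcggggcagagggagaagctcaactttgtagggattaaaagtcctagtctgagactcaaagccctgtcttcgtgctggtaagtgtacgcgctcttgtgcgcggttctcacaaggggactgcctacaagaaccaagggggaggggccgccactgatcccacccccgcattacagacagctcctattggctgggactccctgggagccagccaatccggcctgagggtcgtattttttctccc
Cox7a2: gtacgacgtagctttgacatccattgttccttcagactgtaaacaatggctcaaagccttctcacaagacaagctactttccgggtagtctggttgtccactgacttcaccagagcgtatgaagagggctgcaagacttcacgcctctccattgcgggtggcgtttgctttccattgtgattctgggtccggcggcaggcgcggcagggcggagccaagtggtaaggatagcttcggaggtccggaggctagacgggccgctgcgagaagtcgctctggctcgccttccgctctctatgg
Cox7a1: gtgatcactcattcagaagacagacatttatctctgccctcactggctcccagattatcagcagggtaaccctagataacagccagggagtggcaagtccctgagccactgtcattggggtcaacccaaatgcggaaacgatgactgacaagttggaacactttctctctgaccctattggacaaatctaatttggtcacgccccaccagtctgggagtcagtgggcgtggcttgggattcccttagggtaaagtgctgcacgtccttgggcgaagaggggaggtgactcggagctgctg
Cox8a: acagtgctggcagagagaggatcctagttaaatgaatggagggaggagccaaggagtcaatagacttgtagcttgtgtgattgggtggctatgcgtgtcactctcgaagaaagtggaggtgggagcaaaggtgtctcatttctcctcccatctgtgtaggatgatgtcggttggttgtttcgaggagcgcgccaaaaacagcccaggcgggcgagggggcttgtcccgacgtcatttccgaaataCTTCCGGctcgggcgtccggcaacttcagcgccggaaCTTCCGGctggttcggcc
Cox8b: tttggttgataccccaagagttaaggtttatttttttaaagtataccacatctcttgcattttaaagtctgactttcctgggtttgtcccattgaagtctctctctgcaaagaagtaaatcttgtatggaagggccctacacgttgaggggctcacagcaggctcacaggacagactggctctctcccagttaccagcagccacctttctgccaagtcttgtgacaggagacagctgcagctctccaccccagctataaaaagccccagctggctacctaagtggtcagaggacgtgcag

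Motifs of 3 factors known to control respiratory chain genes were searched on both strands: GCGC, 2 free bases and GCGC for NRF1, CCGGAAG for GABPA and AAGATGGC for YY1. The last bases of the GABPA motif can be the first of the YY1 motif. Cox8a held 2 matches and Cox6b1 held 1, all of the GABPA motif, and the other 4 promoters held none. The capitals therefore mark GABPA matches read on the opposite strand. CpG dinucleotides numbered 17 in Cox6b1 and 10 in Cox6b2, 20 in Cox7a2 and 7 in Cox7a1, and 19 in Cox8a and 2 in Cox8b, so the rarer isoform of each pair had fewer. Promoters of 67 members were matched in the table, and 17 (25.4%) held the NRF1 motif, 14 (20.9%) the GABPA motif and 11 (16.4%) the YY1 motif. Among 27025 genes of the table the shares were 7.0%, 9.93% and 3.19%. At least 1 motif was found in 37 members (55.2%) against 17.9% of all genes. Member promoters were also richer in CpG, which the NRF1 and GABPA motifs contain, with a median of 19 against 7 over all promoters, and the motif shares were not compared at matched CpG. A match is a description of the sequence and not a site of binding.

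Cox6b2 (chr7:4751792-4753094) was more frequent in the lung libraries than at the primary sites. It had 8 UMIs in the early lung (39.3 CPM), 17 in the late lung (41.3 CPM), 28 in the lesion (7.13 CPM) and 1 in the tumor (0.55 CPM). Of the Cox6b1 and Cox6b2 UMIs together it made up 3.81% (1.66% to 7.37%), 6.03% (3.55% to 9.48%), 0.670% (0.446% to 0.968%) and 0.0471% (0.00119% to 0.262%). The lung intervals did not overlap those of the primary sites. The ratio was 2.52 (1.12 to 3.63) for early lung over lesion and -3.14 (-9.06 to -1.11) for tumor over lesion, the latter resting on a single tumor UMI. Without the cells over 10000 UMIs the tumor to lesion ratio was -2.0 (-7.91 to 0.05) and the call was lost. Late lung and tumor had under 20 UMIs together, so that pair was not measured.

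The lung UMIs of Cox6b2 came from few cells, and the fibroblast-like class was small in both lungs. In the early lung 7 of the 8 lay in 3 of the 12 fibroblast-like cells, which makes 532 CPM in that class, against 0 in the 73 endothelial-like cells. In the late lung 3 lay in 3 of the 6 fibroblast-like cells (390 CPM), and 9 of the 17 lay in 5 of the 6 endothelial-like cells over 10000 UMIs. Those 6 cells also held 278 UMIs of the 9 fibroblast markers (1873 CPM, 7 of 9 detected), and the other 49 endothelial-like cells held 0. Whether those deep barcodes hold more than a single cell was not tested, and the doublet caller marked 0 cells of either lung library. Free RNA held Cox6b2 at 21.4, 28.2, 5.84 and 1.36 CPM, so it too was higher in the lung. Cox6b1 itself stood at 992, 643, 1056 and 1163 CPM.

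Cox7a1 (chr7:30184144-30186078) was highest in the tumor. It had 1 UMI in the early lung (4.91 CPM), 7 in the late lung (17.0 CPM), 81 in the lesion (20.6 CPM) and 138 in the tumor (75.6 CPM). Its share of the Cox7a1 and Cox7a2 UMIs was 0.735% (0.0186% to 4.03%), 2.65% (1.07% to 5.39%), 3.38% (2.69% to 4.18%) and 7.36% (6.22% to 8.63%), so the tumor interval stood above the other 3. The ratio was 1.87 (1.47 to 2.29) for tumor over lesion and -2.06 (-3.49 to -1.07) for late lung over tumor. In the tumor 61 of the 138 UMIs came from 14 cells over 10000 UMIs of a cluster led by Xist, Nf1 and Auts2, and without the deep cells the pair share was 8.24% and the ratio to the lesion 2.18. A UMI of Cox7a1 was found in 17.3% of tumor cells (13.8% to 21.2%) and 5.31% of lesion cells (4.16% to 6.66%), and in 8.01% and 2.02% after thinning each cell to 1000 UMIs, which left out 122 and 277 shallower cells. In the alveolar type 1-like and endothelial-like lung cells, which are not known for it, it had at most 1 UMI per class and library. Of the 7 late lung UMIs, 6 lay in 3 cells of the clusters led by Tesc, Npy and Hp, whose other cells came mainly from the tumor or the lesion, so the late lung level rests mostly on those 3 cells.

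Cox8b (chr7:140898945-140900446) followed the same order at the primary sites. It had 3 UMIs in the early lung (14.7 CPM), 0 in the late lung, where 3 UMIs would make 7.28 CPM, 19 in the lesion (4.84 CPM) and 44 in the tumor (24.1 CPM). The tumor to lesion ratio was 2.29 (1.51 to 3.18), and the late lung was at least 3.31-fold lower than the tumor, against a floor of 3 UMIs. Its share of the Cox8a and Cox8b UMIs was 1.76%, 0%, 0.425% and 1.30%, with the intervals of lesion (0.256% to 0.663%) and tumor (0.944% to 1.74%) apart. Without the cells over 10000 UMIs the tumor share was 1.98% and the ratio to the lesion 3.05. A Cox8b UMI was found in 6.45% of tumor and 1.14% of lesion cells, and in 3.53% and 0.480% after thinning. All 3 early lung UMIs lay in fibroblast-like cells.

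Both genes were found in the 2 largest tumor clusters. Cox7a1 had 25 UMIs (89.3 CPM) in the cluster led by Tesc and 49 (98.2 CPM) in that led by Npy, against 1 to 32 UMIs (5.49 to 25.2 CPM) in the 5 lesion clusters. Cox8b had 13 UMIs (46.4 CPM) and 22 UMIs (44.1 CPM) there, against 1 to 8 UMIs (3.08 to 7.08 CPM) in the lesion clusters. In the tumor cluster led by Comp the 3 UMIs of Cox7a1 and 1 of Cox8b did not exceed the floor of 3. In the cluster led by Xist, Cox7a1 had 61 UMIs (61.6 CPM), while the 8 UMIs of Cox8b (8.07 CPM) were close to the lesion level. Free RNA held Cox7a1 at 62.6 CPM in the tumor and 27.5 CPM in the lesion, and Cox8b at 20.4 and 2.34 CPM, so the levels outside cells moved with those inside. In the early lung, free RNA held more of both (34.2 and 51.3 CPM) than the cells did. Markers of muscle and fat, tissues known for these isoforms, were also counted. The 8 skeletal or heart muscle markers summed to 24.1 CPM (44 UMIs) in the tumor and 28.3 CPM (111 UMIs) in the lesion, with Tnnt3 and Myh6 at 0 in both and Ckm at 0 in the tumor. The 5 adipocyte markers summed to 7.67 CPM in the tumor and 112 CPM in the lesion, with Adipoq, Cidec and Lep at 0 in both. Their part in the levels of Cox7a1 and Cox8b was not tested.

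Of the remaining isoforms, Cox6a2, the heart and muscle form of subunit VIa, had 1 UMI in the late lung and 0 in the other libraries. Against Cox6a1, a floor of 3 UMIs makes a share of 1.96% (early lung), 0.184% (lesion) and 0.241% (tumor). The exact upper limits for a count of 0 were 2.38%, 0.226% and 0.296%, in the same order. Cox7b2 and Cox8c, both known from testis, had 0 UMIs in all called cells. Cox7a2l, a relative of Cox7a2 that takes part in supercomplexes of complexes III and IV, was not called in any comparison and stood at 378, 291, 388 and 334 CPM. Cox4i2 and Ndufa4l2, the hypoxia-related relatives outside the rule, were found almost only in the lung. They had 110 and 54 UMIs in the early lung and 112 and 107 in the late lung, against 1 and 6 in the lesion and 1 and 1 in the tumor. In the pericyte or smooth muscle-like cells they reached 5340 and 2535 CPM in the early lung and 3337 and 3074 CPM in the late lung. Cox4i2 was itself a marker of that class, and both genes were left in when cells were clustered. Both were among the 10 leading genes of that cluster, so their levels there are a description.

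**Figure D4:**
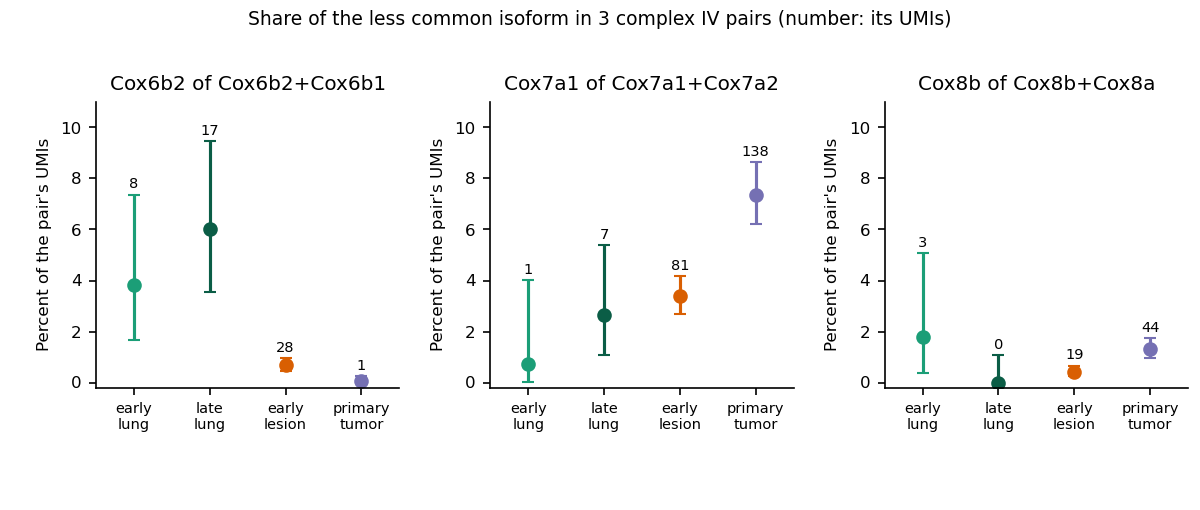
Share of the rarer isoform among the UMIs of its pair for 3 complex IV subunits in each library (points; lines, 95% binomial intervals; numbers, UMIs of the rarer isoform). Cox6b2 was above 3% of its pair in both lung libraries and below 1% at both primary sites, and Cox7a1 was highest in the tumor at 7.36%.

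Within a library the member share also differed between kinds of cell. Cells were clustered without the members and without mitochondrial genes, so the clusters do not rest on the members. Cox4i2, Ndufa4l2 and the other pathway genes of nuclear DNA were left in. Alveolar type 1-like cells held 3.63% in the early lung (3.48% to 3.78%) and 3.34% in the late lung (3.22% to 3.47%). Endothelial-like cells held 2.72% (2.60% to 2.84%) and 2.31% (2.24% to 2.37%), and pericyte or smooth muscle-like cells 2.39% and 2.47%. Among these 3 classes, the ones with at least 20 cells, alveolar type 1-like cells were highest in both lung libraries and overlapped the range of the lesion clusters. The lowest lesion cluster held 2.72% (2.65% to 2.79%). The intervals of early lung endothelial-like cells and late lung pericyte or smooth muscle-like cells (2.29% to 2.66%) also reached that cluster. The median depths of alveolar type 1-like cells, 802 and 717 UMIs, were close to the 695 and 769 UMIs of the endothelial-like cells. The summed depths were not: in the late lung 93 alveolar type 1-like cells held 79899 UMIs and 55 endothelial-like cells 202710 UMIs. Of those 55, 6 were over 10000 UMIs, against 0 of the 93. Summed late lung values of the endothelial-like class thus weigh these 6 cells heavily. The median alveolar type 1-like cell held 3.55% (early lung) and 3.23% (late lung), and the median endothelial-like cell 2.82% and 2.63%.

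In the lesion the 5 clusters of 20 cells or more ranged from 2.72% to 3.73%. The lowest was a cluster led by Hp, Lrg1 and Spp1 (103 cells), and the highest a mammary luminal-like cluster led by Ubd, Csn2 and Cib1 (501 cells). A second mammary luminal-like cluster, led by the milk gene Wap, held 3.28% at the highest milk share, 20.0%. In the tumor 2 clusters led by Tesc and by Npy, with 205 and 153 cells, held 4.43% and 4.70%, above every lesion cluster. The other 2 tumor clusters were lower: 3.0% in the 53 cells led by Comp, Car6 and Aqp5, whose median mitochondrial share was 12.3%, and 3.49% in the 21 cells led by Xist, of which 17 were over 10000 UMIs. Since no class of 20 cells or more spanned both primary sites, cluster and library cannot be told apart there.

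The composition of complexes III and V varied along the same clusters. Atp5b was 9.54% to 13.8% of complex V in the 5 lesion clusters and 7.13% and 7.20% in the 2 larger tumor clusters. It was 13.7% in the tumor cluster led by Comp and 13.9% and 13.2% in the pericyte or smooth muscle-like cells of the early and the late lung. The lung values of that class rest on 16 and 25 UMIs (8.17% to 21.6% and 8.75% to 18.9%). Those lung cells had median mitochondrial shares of 5.5% and 4.15%. The endothelial-like cells, at 4.66% and 4.13%, had 6.63% (4.66% to 9.10%) and 6.46% (5.11% to 8.05%) of complex V from Atp5b. Whether the mitochondrial share had a part in the Atp5b share was not tested. Uqcrc2 was 6.09% to 8.40% of complex III in the lesion clusters and 2.83% and 3.43% in the larger tumor clusters, with 7.25% in the cluster led by Comp. Both shares were thus higher in each lesion cluster than in either larger tumor cluster. Uqcrc1 was 4.93% to 7.69% of complex III in the lesion clusters and 3.18% and 3.61% in the larger tumor clusters. It was 8.70% in the cluster led by Comp. In pericyte or smooth muscle-like cells it was 9.76% (early lung) and 11.6% (late lung), from 4 and 10 UMIs. Cox6a1, in contrast, was 3.88% to 4.35% of complex IV in the lesion clusters and 3.74%, 4.84%, 9.76% and 6.61% in the tumor clusters led by Tesc, Npy, Comp and Xist.

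**Figure D5:**
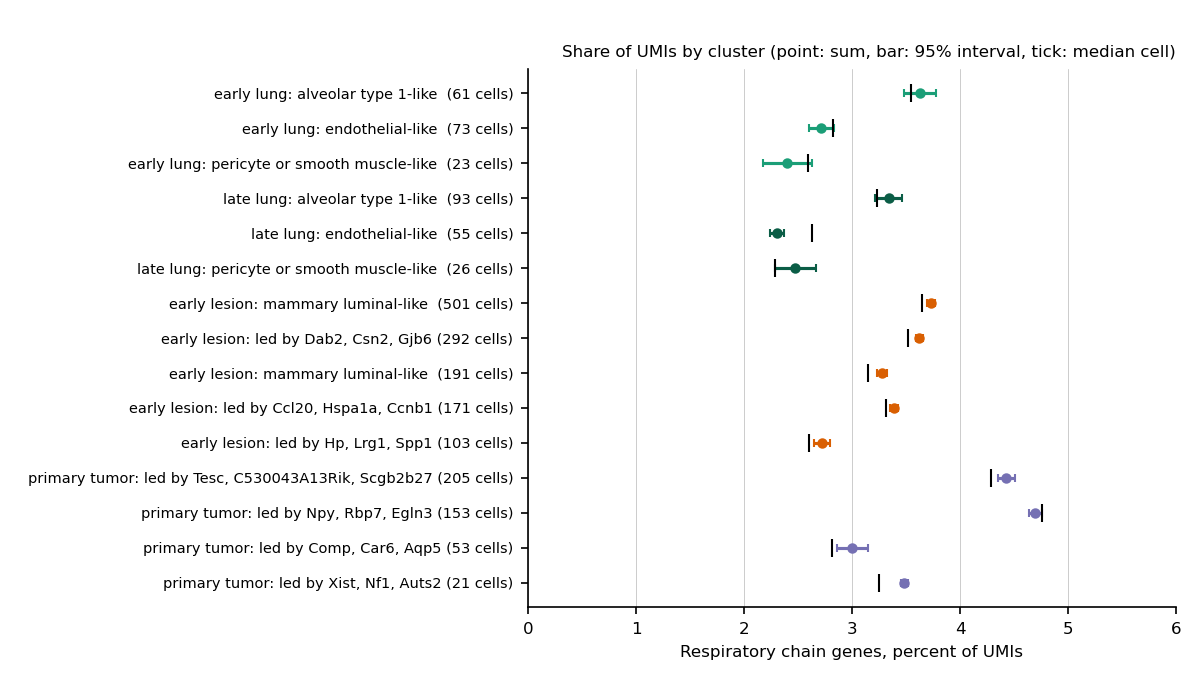
Percent of UMIs from the members in each cluster with at least 20 cells, by library (points, share of the summed UMIs; lines, 95% binomial intervals; black ticks, median cell). Alveolar type 1-like cells lay above the other lung classes, and the 2 largest tumor clusters lay above every lesion cluster.

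The subunits that mitochondrial DNA encodes did not follow the nuclear ones. Per 100 member UMIs, the early lung had 126 mitochondrial UMIs, the late lung 109, the lesion 11.6 and the tumor 93.6, so the lesion stood apart. All 12 measured mitochondrial subunit genes were higher in the early lung than in the lesion and all 13 were higher in the tumor than in the lesion, with medians of 3.39 and 3.31 on the log2 scale. Cytochrome b (mt-Cytb) stood at 4929 CPM in the early lung, 456 CPM in the lesion and 4091 CPM in the tumor. Between late lung and tumor 1 of 13 was called, mt-Co1 of complex IV, at -1.07. Cells above a mitochondrial share of 20% were left out, and a mitochondrial share can also reflect the state of a cell at capture, which was not tested.

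Other genes of the same pathways mostly lay within 2-fold, as the members did. None of the 4 complex II subunits (Sdha, Sdhb, Sdhc and Sdhd) was called in any of the 4 comparisons. The same held for Cycs, cytochrome c, and Cyc1, the cytochrome c1 of complex III, whose names fall outside the rule. Of all genes, 11.9% were called lower in the early lung and 17.4% in the late lung, against the primary site. Higher calls were 22.1% and 20.6%. The gene lists here are short and were not tested against these shares. In the early lung against the lesion, 3 of 13 complex I assembly factors were lower and 0 higher. They were Acad9, with 0 UMIs against 169 and at least 2.92-fold lower, Ndufaf2 at -1.82 (-4.33 to -0.48) and Ndufaf4 at -2.32 (-8.21 to -0.40). In the late lung against the tumor, 3 of 12 were lower, foremost Acad9 at -2.39 (-4.91 to -1.01) from 3 UMIs against 81. Among 24 measured assembly factors of the other complexes 1 was higher, the copper chaperone Cox17 at 1.30 (0.95 to 1.62), and 1 lower, Uqcc3 at -1.13. Atpif1, the inhibitor of the ATP synthase, was lower in the early lung at -1.06 (-1.41 to -0.75), from 816 CPM in the lesion to 388 CPM.

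Of the 13 TCA cycle genes, 4 were lower in the early lung than in the lesion and 0 higher, beside 11.9% of all genes lower. Foremost was Idh3g at -1.64 (-2.60 to -0.91), a subunit of isocitrate dehydrogenase. In the late lung 2 of the 13 were lower than in the tumor, beside 17.4% of all genes. They were Fh1 (fumarase) at -1.92 (-3.35 to -0.93) and Suclg2 at -1.06 (-2.11 to -0.25). The ADP/ATP carrier Slc25a5 was lower in both lungs, at -1.24 (-1.56 to -0.95) and -1.34 (-1.64 to -1.07), and so was the mitochondrial peroxidase Prdx3, at -1.94 (-3.24 to -1.04) and -1.88 (-2.75 to -1.19). Among regulators, Tfam and Tfb2m, which act on mitochondrial DNA transcription, were called lower in the early lung, from 2 and 0 UMIs. Ppargc1a, a coactivator of mitochondrial genes, was called higher in the tumor than in the lesion, from 16 UMIs (8.76 CPM) against 5 (1.27 CPM), at 2.69 (1.27 to 4.59). The other 11 regulators were not called there, where 24.5% of all genes were called higher and 6.68% lower.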

How the data were processed

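The authors deposited counts: whole-number UMI counts per gene and barcode, not normalized, listing all 737280 barcodes in each of 4 libraries. Per the submitters' processing notes, reads were mapped to mm10, with an aligner and annotation not given in the sources used here. The number of per-sample value columns left without a sample was 0. Gene positions came from GENCODE M21 by Ensembl identifier, and promoters from RefSeq (GRCm38.p6).

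Cells were barcodes with at least 500 UMIs, at least 250 genes and at most 20% mitochondrial UMIs. Called cells held 203676, 412032, 3926447 and 1825842 UMIs (early lung, late lung, lesion, tumor). Doublets called by Scrublet (0, 0, 4 and 2 cells) were kept. Counts were summed per library, and ratios are log2 ratios of CPM with 0.5 counts added, with exact Poisson intervals. These intervals treat each UMI as independent, so they are too narrow where few cells hold a gene. Shares carry exact Clopper-Pearson intervals. A count of 0 was replaced by a floor of 3 for bounds. Free RNA was read from barcodes with 1 to 50 UMIs.

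Clustering used scanpy 1.11.5 and leidenalg 0.10.2 (10000 per cell, log, 2000 variable genes, 30 components, 15 neighbours, resolution 1.0). Clusters were named "-like" from marker lists, others stayed unnamed, and names may differ from the study's. The workflow was tested on simulated data. Python 3.11.15 with numpy 2.4.6, scipy 1.17.1 and pandas 2.3.3 was used.

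Named members were the 3 of each complex with the highest mean CPM, up to 10 called in each direction per comparison by the interval bound nearest a ratio of 1, the detected isoforms, and those with 0 counts. Ndufv1, Ndufb9, Ndufa9, Ndufs5 and Uqcrc1 were chosen after their values were seen. From each other pathway list, up to 4 called genes were named by the same bound. The members and all lists were chosen with earlier results of these data known.

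Of the members, 24 overlap another protein-coding gene in the annotation, 6 of them on the same strand. Whether the counting used strand is not given, so counts of such members are uncertain, among those named Uqcrc2, Uqcrb, Ndufa2, Ndufa13, Ndufb5, Ndufb9, Cox4i1, Cox6a2 and Atp5j, as are counts of genes with processed pseudogenes. Alternatives were a UMI minimum of 1000, a mitochondrial limit of 10%, leaving out cells over 10000 UMIs or doublets, totals without milk genes, median ratio scaling, equal weight per cell, and minimum counts of 50 or none. The pair shares without deep cells were chosen after seeing the data.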

Additional observations from a re-analysis of the deposited data

How the results depend on the processing

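No paired analysis was possible because each group holds 1 library, and no replicate could be left out. The summed log2 ratio of the members kept its sign in 3 of the 4 comparisons under every alternative. For early lung over lesion it was -0.33, and -0.58 with a UMI minimum of 1000, -0.56 without milk genes in the total, -0.72 with median ratio scaling and -0.14 with every cell weighing the same. For late lung over tumor it was -0.72, and -0.83, -0.81, -0.83 and -0.55 under the same 4 settings, and -0.78 without cells over 10000 UMIs. For late over early lung it was -0.21, and -0.081 with a UMI minimum of 1000, -0.13 without deep cells, -0.061 with median ratio scaling and -0.11 with equal weights. For tumor over lesion it was 0.18, and turned to -0.057 with median ratio scaling. It was 0.20 with a mitochondrial limit of 10%, 0.36 without deep cells, 0.040 without milk genes and 0.30 with equal weights. There complex I turned to -0.044, complex III to -0.037 and complex V to -0.17 with median ratio scaling, and complex V to -0.074 without milk genes. Complex I turned to 0.035 for early lung over lesion with equal weights. Median ratio scaling subtracts the same value from every log2 ratio of a comparison. The value was 0.39 for early lung over lesion and 0.11 for late lung over tumor. For tumor over lesion it was 0.24, and for late over early lung -0.15. A total without milk genes also shifts all genes of a comparison alike, while equal weights do not.

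Counts of called members moved too. For early lung over lesion the 2 higher became 1 without milk genes, 1 with median ratio scaling and 0 with a minimum of 50 counts, and the 9 lower became 15 without milk genes and 21 with median ratio scaling, each including the 9. For late lung over tumor the 16 lower became 26 without deep cells, 15 of them shared, and 25 with median ratio scaling, and 1 (Cox6b2) was higher with no minimum count. For tumor over lesion the 1 lower became 0 without deep cells, 0 with a minimum of 50 counts, and 2 without milk genes and 2 with median ratio scaling. For late over early lung 2 were lower with no minimum count. Both scalings move every gene of a comparison by the same value, so the share of all genes called can move too. That share is not given under the alternatives, so the changed counts cannot be read against it. A minimum count only changes which genes are measured. Why the calls changed without deep cells was not tested. Cox7a1 and Cox8b stayed higher in the tumor than in the lesion under both scalings and without deep cells. In the lung libraries 3 UMIs make 14.7 and 7.28 CPM, so members below that level could not be placed there.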

Other observations

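The members were also divided by annotated transcript length, with a limit of 1000 bases chosen after seeing the values. Length was the median over the protein-coding transcripts of a gene in GENCODE M21. It need not be the length of the RNA in these cells. Atp5g1 (2675.5 bases), Ndufab1 (2447.5 bases) and Ndufb2 (2413 bases) were among the longer members by this measure. For early lung over lesion the median log2 ratio was -0.08 for the 52 shorter members and -0.68 for the 24 longer ones. Spearman's rho between ratio and length was -0.30 over the 76 members and 0.16 over 8577 protein-coding genes, so the 2 had opposite signs. For late lung over tumor the medians were -0.61 for 51 shorter and -0.89 for 23 longer members. For tumor over lesion they were 0.23 and 0.02. The points share both libraries, and genes are not independent replicates.

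The member share differed between cells of different depth, with no single trend. In the early lung the median share was 3.15% in the 130 cells with at least 500 but under 1000 UMIs and 1.93% in the 13 cells with at least 2000 but under 5000 UMIs. In the late lung it was 3.02% in 131 and 1.12% in 17 such cells, then 2.33% in 5 cells up to 10000 UMIs and 2.11% in 8 deeper ones. In the tumor it was 3.90% in the 122 shallowest cells, 4.78% in 145 cells with at least 2000 but under 5000 UMIs and 3.51% in the 18 cells over 10000 UMIs. In the lesion the medians lay between 3.21% and 3.50%.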
